A study of Mus musculus with 2 samples.

Results

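The 9 genes described here encode collagens of basement membranes and of the muscle matrix outside the classic fibrils: Col4a1, Col4a2, Col6a1, Col6a2, Col6a3, Col12a1, Col14a1, Col15a1 and Col18a1. They were chosen by name, and all 9 of them were counted in both libraries, among 17859 annotated mouse genes with a count in either library. The study sequenced long RNA molecules of the gastrocnemius, the large fast muscle of the calf, from male B6CASTF1/J mice (first-generation hybrids) aged 4 days. There was 1 group of 2 biological replicates with 1 library each, made from 2 µg of total RNA, and no treatment or contrast. The labels give the replicates separate biosamples but a shared donor entry, so differences between them measure the spread between these libraries, which may be technical. Replicate 1 held 1066347 counts and replicate 2 held 1100253, of which 998659 and 1026257 lay on annotated mouse genes. The muscle label matched the data: 8 muscle fibre markers, such as Acta1 and Ckm, held 153660 and 151097 CPM (counts per 1e6 annotated gene counts) in sum, 4 of them higher and 4 lower in replicate 2.

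Collagens are trimers wound around each other, which requires a glycine at each turn, so their genes repeat a glycine codon (GGN) at a period of 3 codons. Collagen IV forms the sheet of the basement membrane from 2 chains of Col4a1 and 1 of Col4a2. Collagen VI, built from Col6a1, Col6a2 and Col6a3, forms beaded microfilaments beside that sheet, and mutations in any of these 3 genes cause congenital muscle disease in humans. Collagens XII and XIV (Col12a1, Col14a1) attach to the surface of collagen I fibrils. Collagens XV and XVIII (Col15a1, Col18a1) carry sugar chains, lie in or near basement membranes, and release an anti-angiogenic C-terminal fragment, which is endostatin in the case of Col18a1.

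The glycine repeat was laid out differently among these genes. A run was counted where at least 4 glycine codons followed each other 3 codons apart. In Col4a1 the annotated coding sequence held 22 runs with 78.4% of its 1669 codons, and the longest had 40 repeats. Col4a2 held 24 runs with 74.9% of its codons, and its longest had 66. By contrast Col1a1, a fibrillar collagen, held a single run of 338 repeats beside a short one. The collagen VI genes held 3 runs each, covering 31.9% of the codons of Col6a1 and of Col6a2 but 10.0% of those of Col6a3. Col12a1 and Col14a1 held 5 runs each, with a longest run of 32 repeats in both, and covered 8.12% and 13.9% of their codons. Col15a1 held 12 runs (25.9%) and Col18a1 16 (40.4%), with a longest run of 30 in both. Internal coding exons whose length is a multiple of 9 bases made up 22.2% (Col12a1) to 72.0% (Col6a2) of the exons of these 9 genes, beside 14.3% over 159181 exons of all protein-coding genes.

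Some of these genes have very small exons, and the sequences that matter for the results follow, read 5′ to 3′ from the GENCODE M21 transcripts. In the first 5 lines capitals mark the small exons, and lower case marks 24 coding bases on each side.
Col6a1, 2 exons of 21 bases (chr10:76721088-76721283, minus strand, introns left out): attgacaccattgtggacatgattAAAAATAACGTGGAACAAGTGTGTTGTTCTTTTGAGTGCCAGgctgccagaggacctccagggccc
Col6a1, exon of 9 bases (chr10:76712865-76712873, minus strand): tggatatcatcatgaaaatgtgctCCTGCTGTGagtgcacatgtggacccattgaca
Col6a3, exon of 12 bases (chr1:90782217-90782228, minus strand): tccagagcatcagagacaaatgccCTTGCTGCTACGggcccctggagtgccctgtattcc
Col6a2, 2 exons of 27 bases (chr10:76611163-76611442, minus strand, intron left out): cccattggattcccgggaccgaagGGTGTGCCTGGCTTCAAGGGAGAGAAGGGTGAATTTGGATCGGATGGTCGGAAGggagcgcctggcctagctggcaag
Col18a1, exon of 27 bases (chr10:77076148-77076174, minus strand): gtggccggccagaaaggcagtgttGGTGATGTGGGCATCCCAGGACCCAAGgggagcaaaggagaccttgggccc
In the next lines capitals mark bases that an alternative splice site adds or leaves out.
Col18a1, 3 bases at an acceptor (chr10:77058828-77058830, minus strand): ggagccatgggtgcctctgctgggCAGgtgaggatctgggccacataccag
Col14a1, 9 bases at a donor (chr15:55411713-55411721, plus strand): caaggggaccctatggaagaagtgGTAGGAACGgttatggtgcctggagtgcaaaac
In the last lines capitals mark the coding bases and stop codon of alternative last exons, after the shared exon in lower case.
Col12a1-201, short end: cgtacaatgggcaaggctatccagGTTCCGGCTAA
Col12a1-204, long end: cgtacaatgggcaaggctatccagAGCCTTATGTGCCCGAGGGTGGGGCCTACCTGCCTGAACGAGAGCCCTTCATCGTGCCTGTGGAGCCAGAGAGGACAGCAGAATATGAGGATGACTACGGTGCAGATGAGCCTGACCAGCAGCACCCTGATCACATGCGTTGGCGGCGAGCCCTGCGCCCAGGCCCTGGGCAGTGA
Col14a1-203, distal last exon: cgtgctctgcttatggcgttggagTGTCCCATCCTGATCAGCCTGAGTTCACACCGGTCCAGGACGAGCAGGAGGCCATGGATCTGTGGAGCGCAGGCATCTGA
Col14a1-204, proximal last exon: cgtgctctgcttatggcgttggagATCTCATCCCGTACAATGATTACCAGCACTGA

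Levels differed widely among the 9 genes. All classes of transcript were summed per gene, divided by the annotated mouse gene counts of the library, and then by the kilobases of the gene's longest annotated transcript, which gives CPM per kb. Together the 9 genes held 4336 counts (0.434% of annotated gene counts) in replicate 1 and 3338 (0.325%) in replicate 2. By this measure Col6a1 stood highest at 182 ± 44.1 CPM per kb (mean ± SD, n = 2), rank 346 of all genes. Next were Col4a1 at 177 ± 54.2 and Col4a2 at 135 ± 0.328. Col6a2 followed at 107 ± 32.9. The means of Col6a1 and Col4a1 differed by less than either SD, and Col4a1 was the higher of the pair in replicate 1 (216 against 213) and the lower in replicate 2 (139 against 151). Col4a2 stood below both, and above Col6a2, in each library. This order depended on the division by length and on the classes counted. Whether counts of long reads grow with transcript length was not tested, so values per kb need not order genes by abundance. Without that division, Col4a1 had the highest mean at 1172 ± 359 CPM, then Col4a2 at 871 ± 2.12. Col6a1 followed at 746 ± 181 CPM and Col6a2 at 525 ± 162. Over complete structures alone (classes Known, annotated; NIC, annotated splice sites in an unannotated combination; and NNC, with a splice site outside the annotation), scaled by the counts of those classes, Col4a2 stood below Col6a2 in each library, at 58.5 and 35.9 CPM per kb against 92.7 and 51.1. Col6a1 (178 and 111) then stood above Col4a1 (138 and 75.3) in both. NIC and NNC models need not begin at the annotated first exon, so complete names these classes here and not full length.

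The other 5 genes stood lower in both libraries. Col18a1 stood at 31.6 ± 8.22 CPM per kb and Col14a1 at 23.95 ± 1.65, a gap smaller than the SD of Col18a1. Col15a1 stood at 10.1 ± 4.11. Col12a1 at 4.67 ± 0.577 and Col6a3 at 4.54 ± 0.396 were the lowest, and their ranges over the 2 libraries overlapped. Their gap to Col15a1 rested on the division by transcript lengths of 11511 and 10106 bases. Without it Col12a1 had 53.8 ± 6.65 CPM, Col15a1 52.1 ± 21.3 and Col6a3 45.9 ± 4.00. The range of Col15a1 over the libraries (37.0 to 67.1 CPM) then covered those of both others. Col3a1, the highest fibrillar collagen, stood at 3329 ± 813 CPM per kb.

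**Figure D1:**
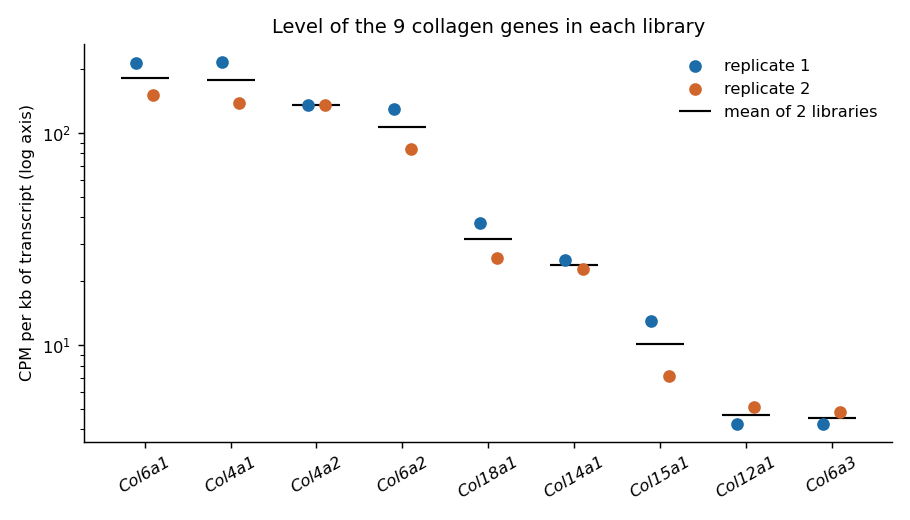
Level of each gene in CPM per kb (vertical log axis) in replicate 1 (blue) and replicate 2 (orange), with a line at the mean. Col6a1, Col4a1, Col4a2 and Col6a2 lie between 83.5 and 216, and Col12a1 and Col6a3 lie between 4.26 and 5.08.

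The only comparison the design allows is library against library, and it asks which collagens varied between the replicates beyond counting error. Of the 9 genes, 5 were lower in replicate 2 by Fisher's exact test (two-sided, Benjamini-Hochberg adjusted over 11027 genes, threshold 0.05) and none was higher. Over all genes tested, 9.74% passed, 4.49% as lower and 5.25% as higher in replicate 2. That share is larger among genes with more counts. With a minimum of 50 counts in sum, which all 9 genes met, 545 of 5949 genes passed as lower, with the same 5 collagens. The test holds counting error only. With a preset spread between libraries (edgeR's exact test, biological coefficient of variation 0.1), none of the 9 passed and 5 of 9 had an unadjusted p below 0.05, while 0.426% of genes passed as lower. At a coefficient of 0.2 none of the 9 had an unadjusted p below 0.05, and 0.0453% of genes passed as lower. The median log2 ratio (replicate 2 over replicate 1, prior count 0.5) was -0.50 over the 9 genes and -0.04 over all genes tested.

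Of collagen IV, Col4a1 was lower in replicate 2 and Col4a2 did not pass the test. Col4a1 (ENSMUSG00000031502.11, chr8:11198423-11312826, minus strand) had 1424 counts in replicate 1 and 943 in replicate 2, a log2 ratio of -0.63 (adjusted p = 1.11e-23, Fisher's exact test; 0.107 with edgeR at a coefficient of 0.1). Its partner Col4a2 (ENSMUSG00000031503.13, chr8:11312805-11449287, plus strand) had 871 and 892 counts, with adjusted p = 1 by the same test. The annotated first exons of both genes run in opposite directions and share 22 bases, chr8:11312805-11312826, plus strand, shown here because they mark the shared start:
Col4a1 and Col4a2 overlap: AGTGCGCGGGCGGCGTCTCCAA
Counts of Col4a1 per count of Col4a2 were 1.63 (exact 95% interval 1.502 to 1.78) in replicate 1 and 1.06 (0.964 to 1.16) in replicate 2. Over complete structures alone, the ratios were 2.42 (2.13 to 2.76) and 2.15 (1.82 to 2.55), whose intervals overlap. Complete structures held 37.8% and 23.3% of the Col4a2 counts, against 55.9% and 47.4% of those of Col4a1. The part of this in the ratios was not tested, and RNA counts do not measure the protein chains.

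The share of Col4a2 counts on its last exon alone differed between the libraries. A model that covers only its last exon (chr8:11448059-11449287) took 163 of 871 counts (18.7%) in the first library and 356 of 892 (39.9%) in the second. Such counts belong to class ISM, a part of an annotated intron chain, and their origin was not tested. With Known, NIC and NNC counts only, Col4a2 was lower in replicate 2 as well, at a log2 ratio of -0.70 (adjusted p = 1.66e-06, Fisher's exact test), and 6 of the 9 genes were lower, beside 4.95% of all genes. The counts of Col4a2 on the full annotated chain of 48 exons were 298 and 187. Single-exon models held 2.53% and 4.03% of the Col4a1 counts.

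Of collagen VI, Col6a1 (ENSMUSG00000001119.7, chr10:76708792-76726168, minus strand) had 873 and 635 counts, a log2 ratio of -0.50 (adjusted p = 2.64e-09, Fisher's exact test). Col6a2 (ENSMUSG00000020241.13, chr10:76595762-76623630, minus strand) had 638 and 421 counts, a log2 ratio of -0.64 (adjusted p = 1.17e-10, same test). Both were lower in replicate 2. Col6a3 (ENSMUSG00000048126.16, chr1:90765923-90843971, minus strand) had 43 and 50 counts and did not pass (adjusted p = 0.855). Counts of Col6a1 per count of Col6a2 were 1.37 (1.23 to 1.52) and 1.51 (1.33 to 1.71), and these intervals overlap. Counts of Col6a1 per count of Col6a3 were 20.3 (14.9 to 28.3) and 12.7 (9.52 to 17.3). In the protein 1 chain of each enters the trimer, but RNA counts do not measure protein chains. The 5′ reach also differed: 10.0% and 4.55% of the last-junction counts of Col6a3 reached its first junction, against 78.2% and 65.3% in Col6a1. The part of this in the ratio was not tested. Over complete structures, of which Col6a3 had 5 and 8 counts, the ratio of Col6a1 to Col6a3 was 127 (54.3 to 394) and 50.9 (25.6 to 119). Only 3 of those 5 and 2 of those 8 counts began at the first exon of Col6a3-201.

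The fibril-associated genes did not pass. Col12a1 (ENSMUSG00000032332.17, chr9:79598991-79718831, minus strand) had 49 and 60 counts (adjusted p = 0.705) and Col14a1 (ENSMUSG00000022371.16, chr15:55307750-55520803, plus strand) had 162 and 151 (adjusted p = 0.714, both Fisher's exact test). With complete structures only, Col14a1 was lower in replicate 2, at a log2 ratio of -0.75 (adjusted p = 0.0148). Of the endostatin family, Col18a1 (ENSMUSG00000001435.15, chr10:77052178-77166548, minus strand) had 209 and 148 counts, a log2 ratio of -0.54 (adjusted p = 0.00983, Fisher's exact test). Col15a1 (ENSMUSG00000028339.17, chr4:47208161-47313167, plus strand) had 67 and 38 counts, a log2 ratio of -0.85 (adjusted p = 0.0376), and it did not pass with the DESeq2 size factors (adjusted p = 0.0604, exact binomial test), with complete structures only (0.274) or with a count minimum of 1 (0.0608).

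**Figure D2:**
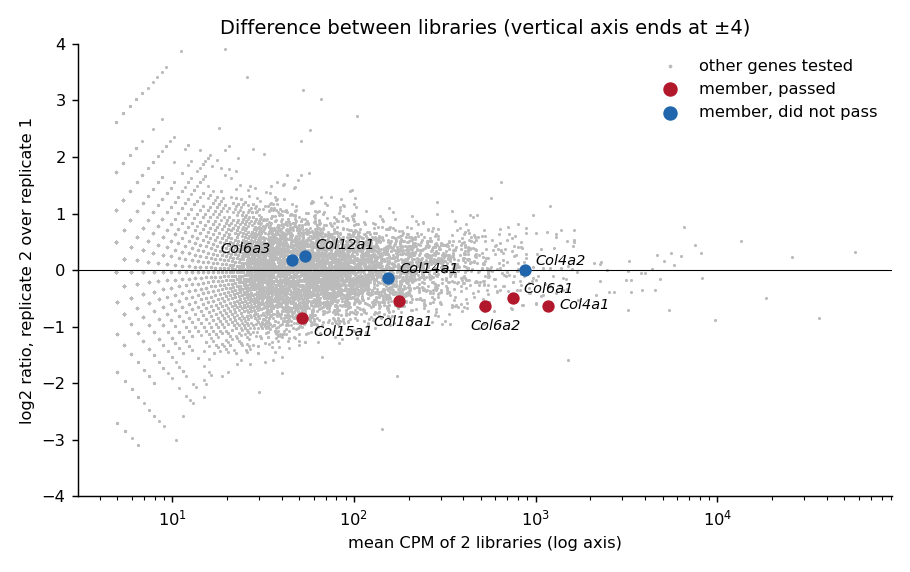
The log2 ratio of replicate 2 over replicate 1 against the mean CPM (log axis) for every gene tested (grey) and the 9 collagen genes (red where Fisher's exact test passed, blue where it did not). The 5 red points lie between -0.85 and -0.50, and 66 genes beyond ±4 are not drawn.

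Other cell types also differed between the libraries. The 5 epidermis markers (Krt1, Krt10, Krt5, Krt14 and Lor) were all higher in replicate 2, with a sum of 4.01 CPM in replicate 1 and 847 in replicate 2, and all but Krt10 were at 0 in replicate 1. Of 6 Schwann cell markers 4 were higher (1457 and 3483 CPM in sum), as were 4 of the 4 adipocyte markers tested (146 and 364). Fibroblast markers were mixed: Dcn and Lum were higher while Col1a1, Col3a1 and Pi16 were lower. Of 8 endothelial markers (610 and 633 CPM in sum, median log2 ratio -0.14), Cldn5 was higher (0.42) and Tie1 lower (-0.85) in replicate 2. Of 5 mural markers (564 and 601 CPM), Acta2 was higher (0.34) and none was lower. The part of these differences in the collagen results was not tested, and in whole muscle fewer cells of a type and less RNA per cell cannot be told apart.

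The wider collagen program was read through lists of related genes. Of 8 fibrillar collagens, 4 were lower in replicate 2 and none higher, with a median log2 ratio of -0.39. Those were Col3a1 (log2 ratio -0.50), Col1a1 (-0.88), Col5a1 (-0.39) and Col5a2 (-0.39), while Col1a2, the partner chain of Col1a1, had 1716 and 1715 counts. The difference between the collagen I chains was not tested. Of 26 other non-fibrillar collagens, 11 had enough counts for the test and none passed. Col16a1 (29.1 ± 6.20 CPM per kb), Col26a1 (11.0 ± 1.29) and Col22a1, a collagen of the muscle-tendon junction (4.996 ± 0.651), stood highest there. Without the division by length, Col22a1 (44.0 ± 5.74 CPM) stood above Col26a1 (30.6 ± 3.60 CPM). The kidney and eye chains Col4a3 and Col4a4, and also Col4a5 and Col4a6, had 0 counts in replicate 1 and 1 in replicate 2, and the collagen VI chains Col6a4 and Col6a5 had 1 and 0. A further collagen VI chain, Col6a6, had 15 counts in each library (1.69 ± 0.0325 CPM per kb) and did not pass. A count of 0 allows a level of up to 3.00 and 2.92 CPM in these libraries, for counting error only.

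Of 18 basement membrane partners 14 were tested, 1 was higher and 5 were lower in replicate 2, with a median log2 ratio of -0.30. Sparc, a secreted collagen-binding protein and the most abundant of them at 996 ± 71.0 CPM per kb, was higher (log2 ratio 0.15, adjusted p = 0.0106, Fisher's exact test). The laminin chains Lamb1 (-0.36), Lamb2 (-0.42), Lamc1 (-0.71) and Lama4 (-0.88) and the dystroglycan gene Dag1 (-0.57) were lower. Nid2, a nidogen that links laminin to collagen IV, stood at 41.4 ± 7.39 CPM per kb and did not pass. Lama1 and Lama3 had no counts. Lama2, the laminin chain of the muscle basement membrane, had 17 and 24 counts on a long transcript.

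Enzymes and chaperones that make collagen gave 2 genes higher and 1 lower out of 26 tested (median -0.15). Serpinh1, the collagen chaperone HSP47, was higher (724 and 975 counts, log2 ratio 0.39), and so was Pcolce, an enhancer of procollagen cleavage (443 and 550, 0.27). P4hb, a subunit of prolyl 4-hydroxylase, was lower (887 and 711, -0.36). The symbol Ctage5 is not in the annotation, so that gene was not counted in this list. Of 9 collagen receptors tested none passed (median -0.48). Itgb1, the integrin beta chain, stood highest at 156 ± 12.0 CPM per kb, followed by Ddr1 at 19.9 ± 4.71 and Antxr2 at 17.8 ± 3.80. Without the division by length, Antxr2 (101 ± 21.5 CPM) stood above Ddr1 (77.2 ± 18.3 CPM). Lair1 had no counts. Of 11 breakdown genes tested, Mmp2, a gelatinase that also cuts collagen IV, was lower (337 and 269 counts, log2 ratio -0.36). Timp2 (75.7 ± 1.36 CPM per kb) and Mmp14 (43.3 ± 0.891) did not pass, the list's median was 0.04, and Mmp13 and Mmp3 had no counts.

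Complete structures were fewer in all 9 genes than in the median gene of like length, and fewest in Col6a3 and Col12a1. The share of a gene's counts on complete structures (Known, NIC and NNC) was 73.0% and 64.1% for Col6a1 and 62.2% and 53.4% for Col6a2 in replicates 1 and 2. It was 61.2% and 68.4% for Col15a1 and 60.3% and 54.1% for Col18a1. The medians over all genes of 4 to 6 kb were 85.5% and 83.7%, so these 4 genes lay below them in both libraries. Among genes of 6 to 8 kb (medians 76.1% and 74.6%), Col4a1 had 55.9% and 47.4%, Col14a1 63.0% and 41.1%, and Col4a2 37.8% and 23.3%. Col6a3 had 5 of 43 (11.6%, exact 95% interval 3.89 to 25.1) and 8 of 50 (16.0%, 7.17 to 29.1). Col12a1 had 10 of 49 (20.4%, 10.2 to 34.3) and 8 of 60 (13.3%, 5.94 to 24.6), against medians of 66.7% and 64.3% over genes of at least 8 kb. For these genes the share does not measure full length. Of the Col6a3 counts in these classes 3 of 5 and 2 of 8 began at the annotated first exon. For Col12a1 6 of 10 and 5 of 8 did.

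Between the libraries this share differed for 4 of the 9 genes, all lower in replicate 2, by Fisher's exact test over 6147 genes. They were Col4a2 (adjusted p = 1.57e-08), Col4a1 (0.00854), Col14a1 (0.0165) and Col6a1 (0.0322). Over all genes 0.813% passed, 0.586% as lower in replicate 2. These shares cover genes of every length and count level that met the minimum. The share among genes with length and counts like those of the 4 genes was not taken.

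**Figure D3:**
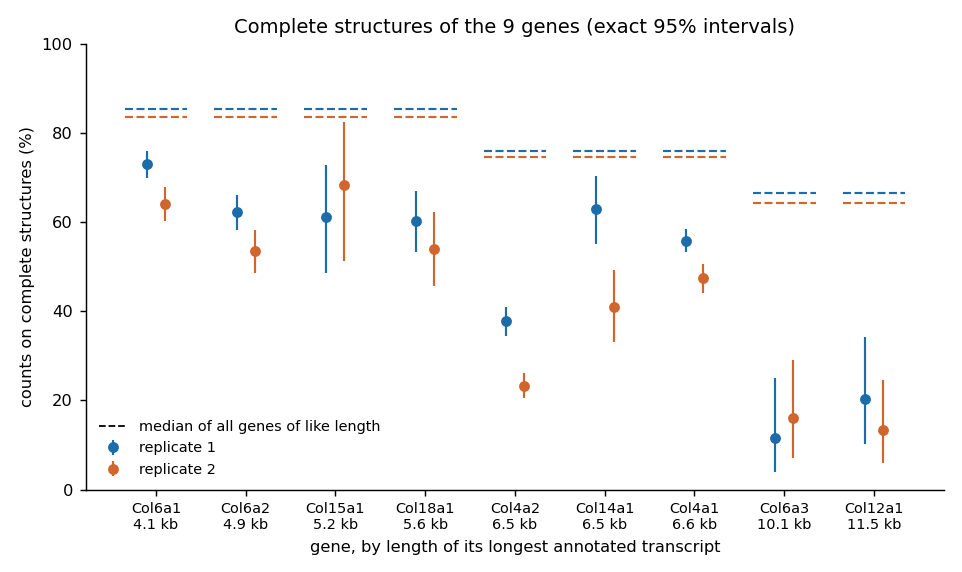
Share of counts on complete structures (vertical axis, %) for each gene in replicate 1 (blue) and replicate 2 (orange), with exact 95% intervals and dashed lines at the median of all genes of like length. The points of all 9 genes lie below the dashed line of their library, and the interval of no gene reaches it.

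Counts fell from the 3′ to the 5′ end of each gene. They were taken at each annotated junction of the reference transcript, over all models that splice across it. At the first junction Col4a1 kept 785 of the 1383 counts of its last junction (56.8%) in replicate 1 and 438 of 903 (48.5%) in replicate 2. Col4a2 kept 315 of 708 (44.5%) and 202 of 536 (37.7%). Col14a1 kept 101 of 155 (65.2%) and 61 of 148 (41.2%), with exact intervals of 57.1 to 72.6 and 33.2 to 49.6. Col6a1 kept 78.2% and 65.3%, Col6a2 64.0% and 55.8%, Col15a1 60.0% and 65.7%, and Col18a1 57.5% and 52.4%. In Col6a3 4 of 40 and 2 of 44 counts reached the first junction, and in Col12a1 6 of 46 and 6 of 50 did. The median model of Col6a3 was 2204 and 2143 bases long, on a transcript of 9001 bases, so levels of its 5′ exons rest on few counts.

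**Figure D4:**
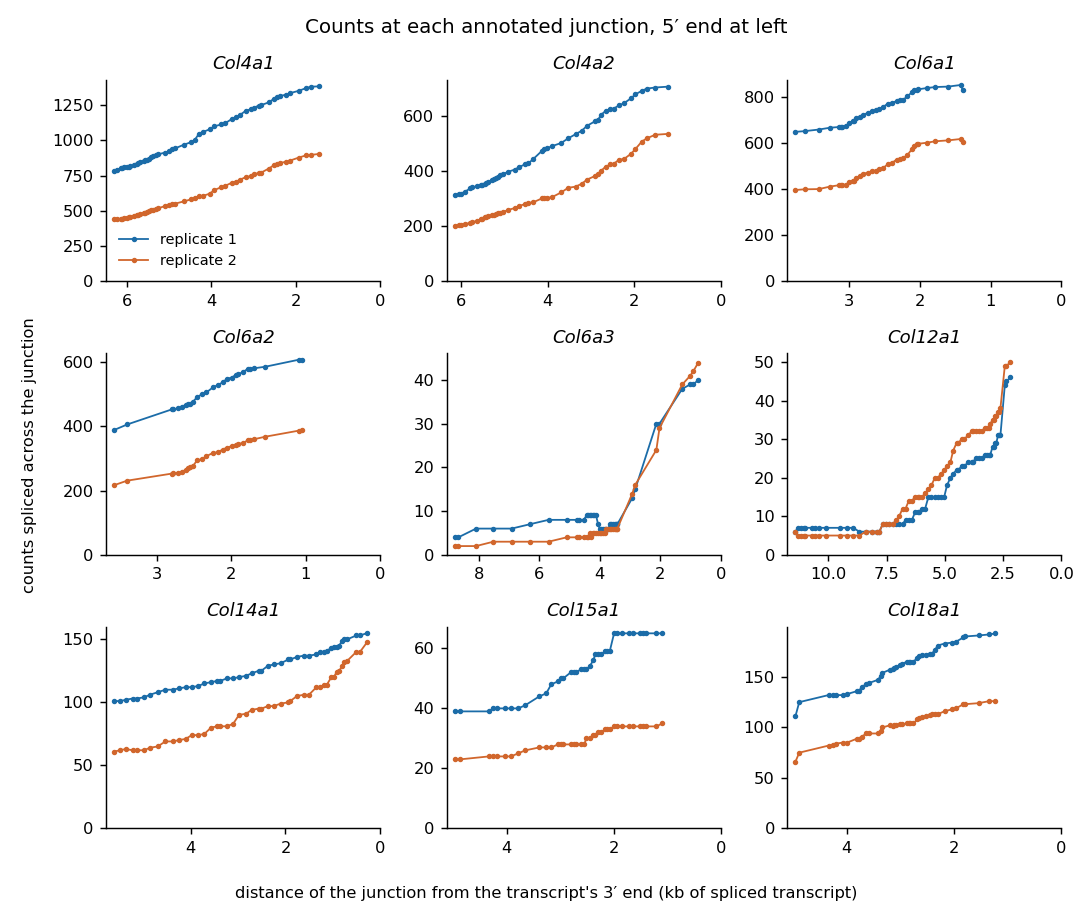
Counts spliced across each annotated junction (vertical axis) against the distance of the junction from the 3′ end in kb of spliced transcript (horizontal axis, 5′ end at left), for each gene in replicate 1 (blue) and replicate 2 (orange). Counts fall toward the 5′ end in all 9 genes, and in Col6a3 and Col12a1 under 10 counts per library are left at the first junction.

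In Col6a1 no count in either library lay on an annotated complete chain. Its leading structure held 585 of its 873 counts in the first library and 336 of its 635 in the other, and had 32 exons where the annotated transcript Col6a1-201 has 35. It was the same intron chain in both libraries, but the deposited tables class it NNC in replicate 1 and NIC in replicate 2, so class totals of this gene (623 NNC and 14 NIC counts, then 52 and 355) cannot be compared between libraries. The chain lacked the small exons printed above. An intron at chr10:76712402-76713180 left out the exon of 9 bases and added 4 bases to its neighbours, in 828 and 582 counts. An intron at chr10:76721043-76721402 left out both exons of 21 bases and added 37 bases to their neighbours, in 666 and 409 counts. Each change comes to 5 bases fewer, which is no multiple of 3. No model held the exon of 9 bases, of 829 and 593 counts spliced across its place.

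Col6a3 showed an intron of the same form. Its exon of 12 bases was in 0 of 7 and 0 of 6 counts, and 5 and 4 of them used an intron (chr1:90782129-90782336) that added 4 bases to the neighbours. Other introns of this form were minor. In Col18a1, chr10:77074482-77077141 left out the exon of 27 bases and added 17 bases to the neighbours, in 19 and 15 counts. In Col6a2, 16 and 20 counts left out both exons of 27 bases with 52 bases added, and 8 and 6 counts did so with 48 added. The Col6a2 exon of 21 bases was left out with 19 bases added in 9 and 3 counts, and with 25 added in 4 and 3. In Col6a1, 18 and 13 counts left out an exon of 27 bases with 22 added, and in Col4a1 3 and 7 counts left out 1 of 27 bases with 20 added. Of these minor introns, the one with 48 bases added in Col6a2 changes the length by a multiple of 3 and the others do not. Whether the small exons are absent from the RNA or were placed in a neighbouring exon when the authors aligned the reads was not tested, since reads and genome sequence were not used here.

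An annotated Col4a1 exon of 17 bases (chr8:11204536-11204552) was in 0 of 1371 and 0 of 894 counts. Unlike the exons above it is not part of the leading annotated transcript, Col4a1-201, whose full chain held 750 and 407 counts. The other small exons were mostly included. The Col12a1 exon of 27 bases was in 11 of 11 and 15 of 15 counts, the Col6a1 exon of 30 bases in 825 of 826 and 601 of 604, and a Col4a1 exon of 27 bases in 848 of 854 and 471 of 481. The Col6a2 exon of 21 bases was in 435 of 452 and 247 of 253. In all 213 internal exons of the 9 genes with at least 20 informative counts per library, and at least 1 count that skips them, were tested for inclusion. Fisher's exact test called none of them, and 4 had an unadjusted p below 0.05, while 0.0417% of 16789 exons of all genes passed. At 5 to 95% inclusion there were 3 exons. The Col18a1 exon of 27 bases was in 132 of 151 counts (87.4%, exact interval 81.0 to 92.3) and 81 of 96 (84.4%, 75.5 to 91.0). The 19 and 15 counts without it match those of the intron with 17 bases added, described above. The pair in Col6a2 was included together, at chr10:76611163-76611189 in 443 of 468 counts (94.7%, 92.2 to 96.5) and 242 of 270 (89.6%, 85.4 to 93.0). Of the 25 and 28 counts without it, 16 and 20 had the intron with 52 bases added, and 8 and 6 that with 48. Whether these skips are in the RNA or come from read placement was not tested.

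Col6a3 and Col12a1 are known for alternative N-terminal domains, each encoded by 1 exon of about 600 bases in Col6a3. Counts there were few. In Col6a3-201 numbering, exon 3 (618 bases) was skipped in all 4 and 2 counts that spanned it. Exon 4 (603 bases) was skipped in 4 counts of replicate 1, and in replicate 2 it was in 1 and skipped in 1. Exon 6 (600 bases) was in 5 and skipped in 1, then in 1 and skipped in 1. Exons 5 and 7 to 12 were in every count that covered them.

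In Col12a1 an unannotated intron at chr9:79678611-79715363 joined exon 2 to exon 18 and left out 15 exons with 3492 bases, a multiple of 3. It had 4 counts in replicate 1 and 5 in replicate 2. Exons 3 to 13 were covered by 3 and 0 counts, exons 14 to 17 by 2 and 1. Collagen XII is known in a long form and in a short form that lacks N-terminal domains. Too few counts reached these exons for a test between the libraries.

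The 3′ ends of both fibril-associated genes were mixtures. In Col12a1 the last exon began at either of a pair of acceptors. The Col12a1-201 end, with 8 coding bases before its stop, had 28 of 46 counts (60.9%, exact interval 45.4 to 74.9) and 28 of 50 (56.0%, 41.3 to 70.0). The Col12a1-204 end, with 173 coding bases, had 18 and 22. In Col14a1 the distal last exon of Col14a1-203, with 77 coding bases, had 112 of 155 (72.3%, 64.5 to 79.1) and 112 of 148 (75.7%, 67.9 to 82.3), and the proximal exon of Col14a1-204, with 29 coding bases, had 43 and 35. Full chains combined these choices: 57 and 39 counts matched Col14a1-203, 11 and 3 matched Col14a1-201, and 22 and 9 lay on an unannotated chain of annotated introns.

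Shifts of a few bases were also seen. In Col14a1 the earlier donor that leaves out the 9 bases printed above had 101 of 118 counts (85.6%, 77.9 to 91.4) and 70 of 80 (87.5%, 78.2 to 93.8). In Col18a1 an unannotated acceptor left out the 3 printed bases in 38 of 185 and 26 of 119 counts, and the annotated one had 79.5% (72.9 to 85.0) and 78.2% (69.6 to 85.2). Both shifts are multiples of 3 bases. The choice between introns at a shared splice site was compared by Fisher's exact test over 6679 sites of all genes, a readout chosen after seeing the data. None of 7 sites in the 9 genes passed (smallest adjusted p = 0.582), 1 had an unadjusted p below 0.05, and 0.255% of all sites passed.

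**Figure D5:**
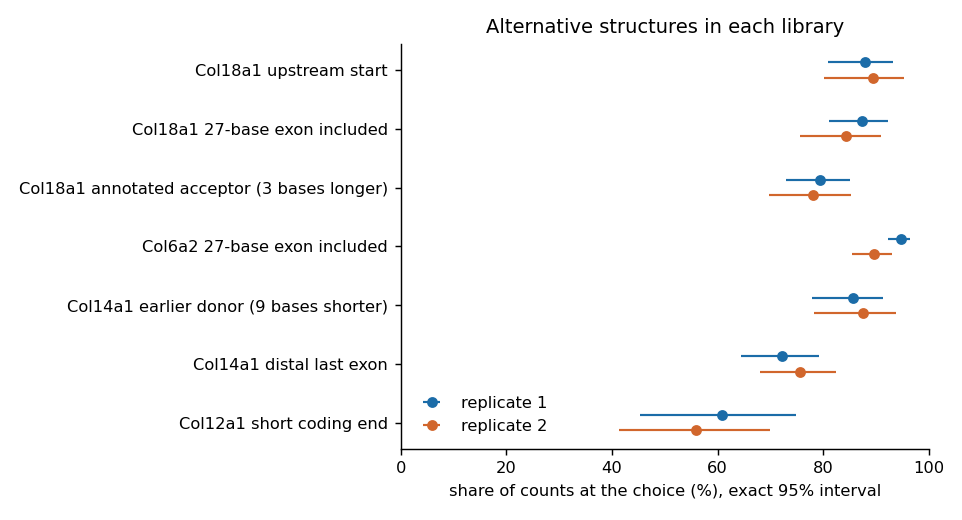
Share of counts (horizontal axis, %) for 7 alternative structures in replicate 1 (blue) and replicate 2 (orange), with exact 95% intervals. At each of them the intervals of both libraries overlap, from 56.0% for the short coding end of Col12a1 to 94.7% for the Col6a2 exon.

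Col18a1 has a pair of promoters. The upstream one gives the short form (3945 coding bases, Col18a1-202), known from vessel and epithelial basement membranes, and the downstream one gives longer forms (4581 bases in Col18a1-203 and 5322 in Col18a1-201), known from liver. The choice was read from the introns that share the acceptor at chr10:77096536. The upstream start had 110 of 125 counts (88.0%, exact interval 81.0 to 93.1) and 67 of 75 (89.3%, 80.1 to 95.3). The downstream starts had 13 of 125 (10.4%, 5.65 to 17.1) and 8 of 75 (10.7%, 4.72 to 19.9), of which 9 and 7 were Col18a1-201. By the donor of the first intron of complete structures, the upstream start had 103 of 126 and 64 of 80 counts. Of 3 first donors tested in the 9 genes (Col18a1 and Col15a1) none passed Fisher's exact test, none had an unadjusted p below 0.05, and 0.847% of 3068 donors of all genes passed. In Col15a1 the annotated first donor had 39 of 41 and 23 of 26 counts.

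The upstream Col18a1 promoter is shown as the start that carried most counts, from RefSeq on GRCm38.p6, with the 250 bases before its annotated RNA start and searched motifs in capitals.
Col18a1 upstream promoter (chr10:77166531-77166780, minus strand): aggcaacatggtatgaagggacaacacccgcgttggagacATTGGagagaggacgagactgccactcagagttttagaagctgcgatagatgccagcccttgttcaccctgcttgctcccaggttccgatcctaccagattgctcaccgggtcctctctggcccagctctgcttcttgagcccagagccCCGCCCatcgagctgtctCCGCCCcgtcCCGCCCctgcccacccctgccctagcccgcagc
It was searched on both strands for GGGCGG (the GC box bound by Sp1), TATAAA and CCAAT. It held GGGCGG at 3 places, all as CCGCCC, and CCAAT at 1 place, as ATTGG, and no TATAAA. The downstream promoter held none of these 3 motifs, with 57.6% G and C against 62.0% upstream. Over 32851 promoters of 250 bases, 32.7% held GGGCGG, 33.8% CCAAT and 12.4% TATAAA. The table held 9 promoters of 7 of the 9 genes, of which 4 held GGGCGG, 3 CCAAT and 0 TATAAA. Those of Col4a1 and Col4a2, which face each other, had 74.4% and 73.6% G and C, beside a median of 52.4% over all promoters. Each of these windows lies wholly within the annotated first exon of the other gene.

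Unannotated RNA around the genes was sparse. An unspliced model on the strand opposite to Col4a1 (chr8:11204552-11211764, 7213 bases, plus strand) had 11 and 6 counts, and no other antisense model over the 9 genes had more than 4 counts in a library. In Col6a2, 39 of 638 counts (6.11%, exact interval 4.38 to 8.26) and 60 of 421 (14.3%, 11.1 to 18.0) ended more than 100 bases beyond the annotated 3′ end, by up to 1675 and 1936 bases. None of the other 8 genes had such counts. Apart from Col6a3, their farthest models ended exactly at the annotated end (0 bases beyond) in both libraries. For Col6a3 the farthest end lay at -937 bases, short of the annotated end. Whether model ends follow the ends of the reads was not tested, so these counts cannot show that RNA beyond the end is absent there. An alternative last exon of Col6a2 (Col6a2-202) with 293 coding bases took few counts, with 1 and 5 on its complete annotated chain against 339 and 177 on Col6a2-201.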

How the data were processed

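Long-read RNA libraries of 1 group (2 replicates) were analysed. Per the file headers, the authors deposited counts per transcript model, with a class for each model (Known, ISM, NIC, NNC or Genomic). Exon coordinates come from the paired GTF files, on mm10 with the GENCODE M21 annotation per the deposited readme. The sources used here name no aligner or counter version. The replicates held 1066347 and 1100253 counts.

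Counts were summed over all classes per gene and divided by annotated mouse gene counts. Genes with at least 10 counts in sum were compared between libraries by Fisher's exact test (two-sided, Benjamini-Hochberg over all genes, threshold 0.05). Complete shares, exon inclusion, first donors and splice sites used the same test with at least 20 counts per library. Inclusion was tested only for exons with at least 1 count skipping them. Intervals are exact (Clopper-Pearson, 95%) and, like the tests, cover counting error only. Alternatives changed the count minimum, classes, scaling and spread (edgeR 4.0.16, DESeq2 1.42.0), the denominator, and the libraries. The splice site comparison was added after seeing the data. The tests were checked on simulated data that held counting error only, so that check does not cover spread between libraries. Scripts used Python 3.11.15, scipy 1.17.1 and R 4.3.3.

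Members and lists were chosen with earlier results of these data known. Outside the 9 genes, the text names the 3 highest genes of a list by CPM per kb, up to 6 called genes and those without counts; Lama2 and the other collagen IV and VI chains were picked with their values in view where this rule did not name them. Sequences come from GENCODE M21 transcripts and RefSeq promoters.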

Additional observations from a re-analysis of the deposited data

How the results depend on the processing

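No paired analysis was possible because the study has 1 group. With a preset spread between libraries the number of genes called fell from 1074 to 172 (coefficient of variation 0.1) and 56 (0.2), and the number of the 9 collagen genes called lower from 5 to 0 and 0. Over Known, NIC and NNC models alone, 13 cassette exons of all genes passed in place of 7, and the summed level of the 9 genes was 2220 CPM in place of 3797. With 1 replicate left out that level was 4342 or 3253 CPM. The sign of the log2 ratio turned for Col4a2 with TMM library sizes (0.01) and DESeq2 size factors (0.03), and for Col12a1 over complete structures (-0.35), none of which passed a test; the cause was not tested. Of the alternatives for the log2 ratios of the 9 genes, 45 kept direction and side of the threshold, 13 lost the call, 2 gained it and 3 turned the sign. With 43 to 60 counts in each library for Col6a3 and Col12a1, depth limits what can be said of their 5′ exons.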
